A study of Drosophila melanogaster with 30 samples.

Results

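Male flies with a Ycongo chromosome beside their own Y were compared with male flies that carried a Yohio chromosome in its place, so that the number of Y chromosomes was the same and the kind of added Y differed. The comparison rests on 4 of the 30 RNA libraries of the series, all of them from whole bodies of Drosophila melanogaster males: 2 of XYYcongo males and 2 of XYYohio males. They were chosen by genotype, tissue and sex as the labels give them, not by a measured value. Another 2 libraries, of XY control males without an added Y, entered the fit only to estimate the spread between libraries, and their levels are given for orientation. All flies were adults whose age was given as 2 days, reared at 23 °C with 14 hours of light per day. In the labels the X and the Y of all 3 genotypes are joined by a mark commonly used for attached chromosomes, which is not spelled out there. This chromosome pair is therefore shared by all 3 groups, while Ycongo or Yohio is the chromosome that differs. The labels speak of biological replicates without saying whether they came from separate cultures, and p-values therefore reflect only how far these libraries differ from each other.

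The Y chromosome of Drosophila is almost entirely heterochromatic. It holds a small set of protein-coding genes, most of them transcribed in the male germline and needed for moving sperm, as well as ribosomal DNA and repeats such as Suppressor of Stellate, whose RNA silences the Stellate genes on the X chromosome. Y chromosomes taken from different populations are known to alter the expression of genes on other chromosomes, although the proteins they encode hardly differ. The comparison of Ycongo with Yohio addresses such an effect of the kind of Y at a constant Y number.

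The libraries held between 6688098 and 12754207 gene counts in the added-Y groups, and the XY libraries held 6026258 and 9267123. Levels are given as CPM, which are counts set against a library total scaled by the TMM method, and 3 counts, the limit that a count of 0 allows, came to between 0.306 and 0.402 CPM. XYYcongo replicate 2 stood apart. Genes of the mitochondrial genome took 40.1% of its counts, against 9.37% to 15.7% in the other 5 libraries, and its TMM factor was 0.66, against 0.965 to 1.24. The correlation of log2 CPM with each of the other 5 libraries was at most 0.932. Between the remaining libraries likeness did not follow genotype: XYYohio replicate 1 and XY replicate 1 correlated at 0.98, XYYohio replicate 2 and XY replicate 2 at 0.98, and the XYYohio replicates with each other at 0.956. XYYcongo replicate 1 correlated at 0.970 with XYYohio replicate 2 and at 0.971 with XY replicate 2. Its correlations with XYYohio replicate 1 and XY replicate 1 were lower, at 0.932 and 0.908. Long genes also differed from short ones. The median log2 fold change was 0.27 for the 472 genes in the class with the longest annotated exons and -0.15 for the 558 genes with up to 500 exon bases. In the longest class the median deviation of a library from the mean of all 6, in log2 of CPM plus 1, was 0.25 and 0.05 with Ycongo. It was -0.25 and 0.08 with Yohio and -0.34 and 0.20 in XY males, so that replicates of 1 genotype differed in this trend as well. Tissue markers were those of a whole male: the 25 muscle genes summed to between 13398 and 35238 CPM and the 52 seminal fluid genes to between 9579 and 30119 CPM over the 6 libraries, while the female germline and eggshell list summed to no more than 58.2 CPM. In whole bodies, fewer cells of a type and less RNA per cell cannot be told apart.

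Not a single gene passed the test between XYYcongo and XYYohio bodies. With edgeR's quasi-likelihood test and Benjamini-Hochberg adjustment, 0 of 12889 genes (0%) had an adjusted p below 0.05. Without XYYcongo replicate 1, edgeR called 1 gene, crok. At an unadjusted p below 0.05 edgeR gave 856 genes (6.64%), 437 higher with Ycongo (3.39%) and 419 lower (3.25%). DESeq2, run as an alternative, called 16 of the 7009 genes to which it gave an adjusted p (0.228%), 14 of them higher with Ycongo (0.2%) and 2 lower (0.0285%). In all 16 the 2 groups did not overlap, which was also true of 4808 genes of all those tested (37.3%), 2278 of them higher with Ycongo (17.7%) and 2530 lower (19.6%). Over all genes the median log2 fold change was 0.03. The biological coefficient of variation was 0.374, and with 2 libraries against 2 the smallest p that an exact permutation test of 1 gene can give is 0.333. The leading genes were taken as the 12 in each direction with the smallest unadjusted p among genes whose mean log2 CPM reached 2 and whose groups did not overlap. Each of these 24 had an edgeR adjusted p of 0.693 by the Benjamini-Hochberg method.

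**Figure D1:**
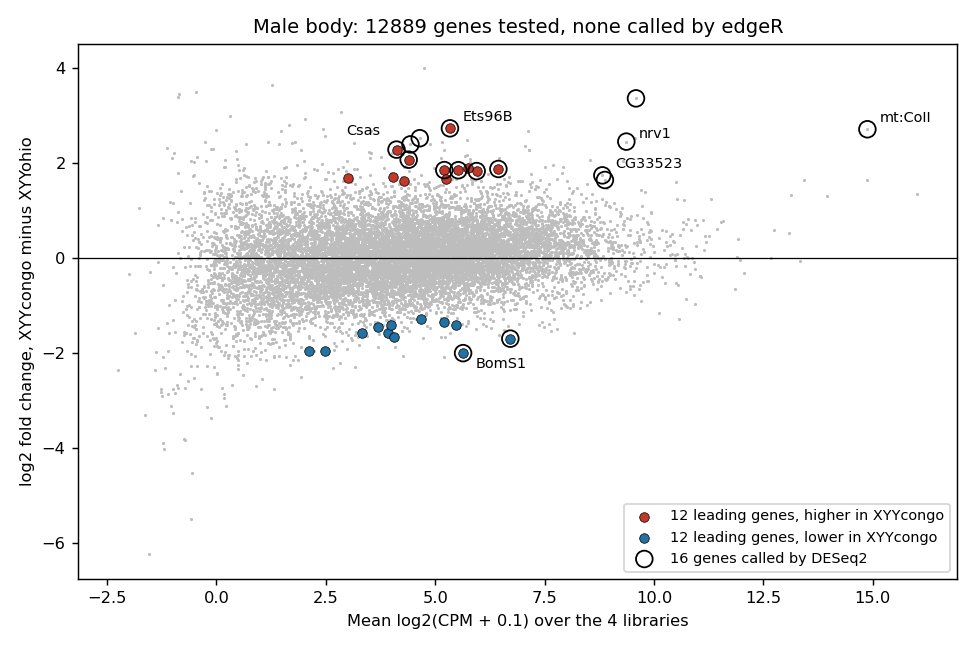
Log2 fold change of XYYcongo minus XYYohio (vertical axis) against the mean log2 of CPM plus 0.1 over the 4 libraries (horizontal axis) for the 12889 genes tested in male body. Red and blue points are the 12 leading genes in each direction, and rings mark the 16 genes called by DESeq2, which lie at the upper and lower edges of the cloud at medium and high levels.

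The smallest unadjusted p was that of Ets96B, which encodes a transcription factor of the ETS family. Ets96B stood at 95.95 and 112 CPM in XYYcongo males, against 14.3 and 17.0 CPM in XYYohio males and 14.8 and 21.1 CPM in XY males. Both XYYcongo libraries were far above the other 4, which lay close together. The group means were 104 ± 11.7 CPM with Ycongo and 15.7 ± 1.91 CPM with Yohio (SD, n = 2 each), a ratio of 6.65. The log2 fold change was 2.73 ± 0.38 SE, with edgeR adjusted p = 0.693 and DESeq2 adjusted p = 4.99e-06. When a single library was left out, it lay between 2.61 and 2.86.

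Its neighbour Ude, which encodes a uracil-DNA degrading factor, read the same way. Ude had 117 and 118 CPM with Ycongo, against 26.1 and 39.8 CPM with Yohio and 28.4 and 41.8 CPM in XY males, again with both XYYcongo libraries above all others. Its log2 fold change was 1.83 ± 0.39 SE (DESeq2 adjusted p = 0.0312). In the Ensembl BDGP6.54 annotation Ets96B lies at chr3R:24788054-24797955 on the plus strand and Ude at chr3R:24797460-24799668 on the minus strand, so that their 3′ exons overlap. Strandedness of the libraries is not given in the sources used here, and reads from the shared stretch cannot be assigned to 1 of the genes. The same limit holds for 8 of the 24 leading genes and 23 of the 97 named genes, whose exons overlap those of another gene.

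**Figure D2:**
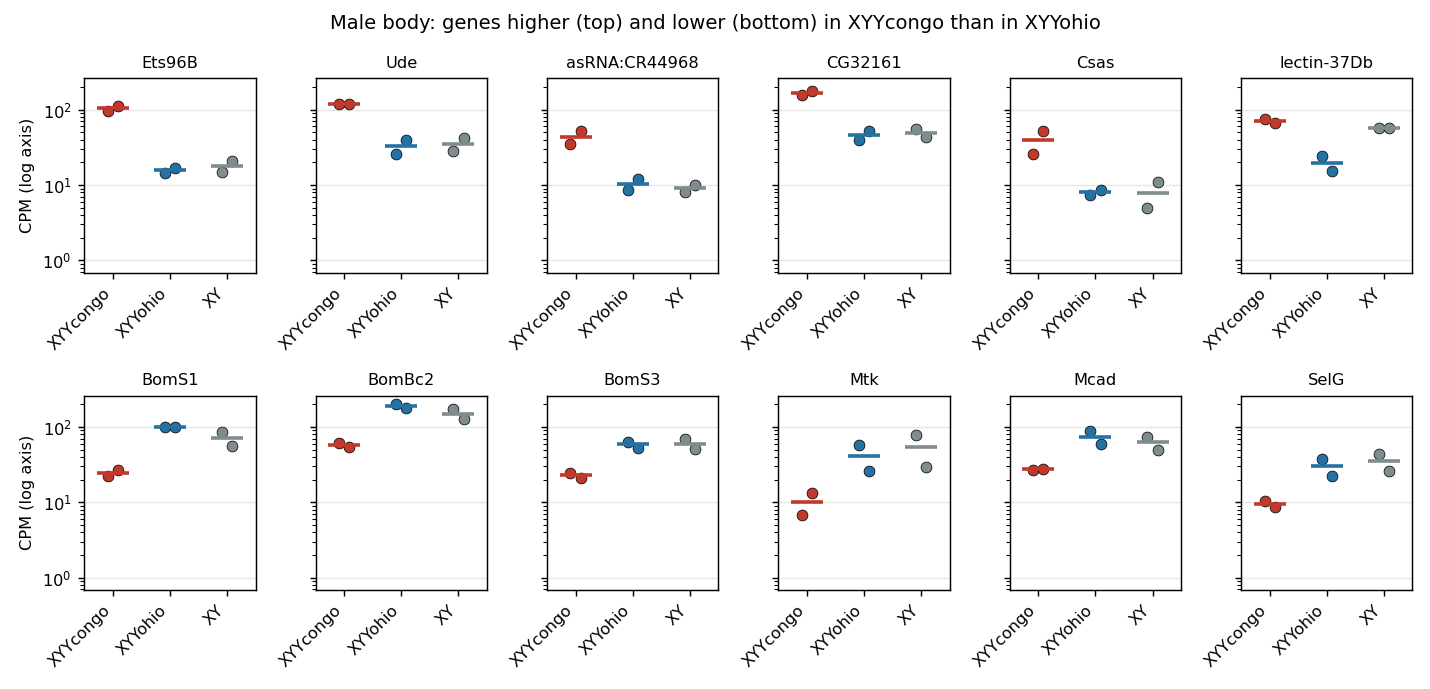
CPM on a log axis in the 2 libraries of each genotype (points) and their mean (bars) for 6 genes that were higher in XYYcongo than in XYYohio male bodies (top row) and 6 that were lower (bottom row). In 11 of the 12 panels the XY libraries lie beside or near the XYYohio libraries, and in that of lectin-37Db they lie nearer to XYYcongo.

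Further transcripts that DESeq2 called higher with Ycongo came from scattered places in the genome. CG32161 on chromosome arm 3L had 157 and 178 CPM with Ycongo, against 39.2 and 52.1 CPM with Yohio and 55.8 and 43.7 CPM in XY males (log2 fold change 1.88 ± 0.37 SE, DESeq2 adjusted p = 0.018). CG33523, also on 3L, had 949.6 and 716 CPM with Ycongo, against 220.2 and 278 CPM with Yohio and 199.6 and 266 CPM in XY males (log2 fold change 1.74 ± 0.45 SE, DESeq2 adjusted p = 0.0282). For both genes each XYYcongo library was above all XYYohio and XY libraries. CG31639 on 2L showed the same order, with 739.8 and 929.6 CPM with Ycongo against 252 and 282 CPM with Yohio and 222 and 343 CPM in XY males (log2 fold change 1.64 ± 0.45 SE). Csas encodes CMP-sialic acid synthase, which activates sialic acid for glycan synthesis. It stood at 25.7 and 52.9 CPM with Ycongo, against 7.42 and 8.68 CPM with Yohio (log2 fold change 2.28 ± 0.53 SE, DESeq2 adjusted p = 0.0312), and its exons overlap those of schuy. CG33109 on 3R had 80.5 and 95.4 CPM with Ycongo, against 20.8 and 27.98 CPM with Yohio and 14.2 and 27.9 CPM in XY males. The antisense RNA asRNA:CR44968 had 35.4 and 51.6 CPM with Ycongo, against 8.72 and 11.9 CPM with Yohio, and overlaps CYLD, a deubiquitinase gene with which it may share reads. CG33523 and CG31639 are DESeq2 calls outside the 24 leading genes and were chosen after their values were seen.

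For lectin-37Db, a C-type lectin gene, the XYYohio libraries were the ones that stood apart. Its level was 74.7 and 67.04 CPM with Ycongo, against 23.9 and 15.3 CPM with Yohio, while XY males had 57.3 and 56.4 CPM. The XY libraries were thus nearer to XYYcongo, and the log2 fold change of 1.85 ± 0.38 SE (DESeq2 adjusted p = 0.0275) came with a low Yohio level. The other leading genes that were higher with Ycongo were not called by either tool. Obp57a, an odorant-binding protein gene, had 28.4 and 40.8 CPM with Ycongo, against 12.4 and 10.1 CPM with Yohio and 11.5 and 12.6 CPM in XY males. OtopLb, a gene of the otopetrin family of proton channels, had 89.2 and 49.7 CPM with Ycongo, against 20.2 and 23.4 CPM with Yohio. CG15468 on the X chromosome had 133 and 80.7 CPM with Ycongo, against 20.3 and 37.02 CPM with Yohio. The long noncoding RNAs lncRNA:CR45203 and lncRNA:CR43424 had log2 fold changes of 1.70 and 1.68.

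Another set of genes was highest by far in XYYcongo replicate 2. The gene nrv1, a beta subunit of the sodium-potassium pump, had 529 and 3168 CPM in the XYYcongo libraries, against 363 and 312 CPM with Yohio and 414 and 323 CPM in XY males. The first XYYcongo library lay just above the other genotypes and the second far above them. The pattern recurred in CG2608, with 20.5 and 123 CPM with Ycongo against 11.4 and 13.4 CPM with Yohio, and in EMC5, a subunit of the membrane protein insertion complex of the endoplasmic reticulum, with 20.9 and 91.3 CPM with Ycongo against 9.37 and 11.9 CPM with Yohio. DESeq2 called all 3 higher, with adjusted p between 0.0474 and 0.0497. These 3 and crok lie outside the 24 leading genes and were chosen after their values were seen. The septate junction gene crok had 16.9 and 300.0 CPM with Ycongo, against 8.46 and 11.3 CPM with Yohio. It was the single gene that edgeR called when XYYcongo replicate 1 was left out, which leaves the library with the high mitochondrial share to stand alone for Ycongo. Mitochondrially encoded transcripts moved with that library as well: mt:CoII, a cytochrome oxidase subunit, had 28705 and 152360 CPM with Ycongo, against 15704 and 11904 CPM with Yohio (DESeq2 adjusted p = 0.018). The other mitochondrial call by DESeq2 was mt:tRNA:Leu-TAA, with 599.6 and 6518 CPM with Ycongo against 518 and 173 CPM with Yohio. Summed over 35 genes of the mitochondrial genome, the level was 105020 and 609220 CPM with Ycongo, against 136710 and 89962 CPM with Yohio. The log2 fold change of that sum was 1.66 (edgeR adjusted p = 0.698), and -0.11 without XYYcongo replicate 2. What set that library apart was not tested.

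Among the genes that were lower with Ycongo, peptides of the immune defence led. BomS1 encodes a short Bomanin, one of the secreted peptides that the Toll pathway induces against fungi and bacteria. BomS1 stood at 22.5 and 27.1 CPM in XYYcongo males, against 101 and 98.3 CPM in XYYohio males and 84.9 and 56.5 CPM in XY males. Each XYYcongo library was below the other 4. The means were 24.8 ± 3.25 CPM with Ycongo and 99.7 ± 1.97 CPM with Yohio (SD, n = 2 each), the Yohio mean being 4.02 times as high as that of Ycongo, and the log2 fold change was -2.01 ± 0.38 SE (edgeR adjusted p = 0.693, DESeq2 adjusted p = 0.017). BomBc2, a Bomanin with a pair of peptide domains, had 61.8 and 54.8 CPM with Ycongo, against 199 and 181 CPM with Yohio and 174 and 126 CPM in XY males (log2 fold change -1.70 ± 0.38 SE, DESeq2 adjusted p = 0.0312). BomS3 had 24.8 and 21.04 CPM with Ycongo, against 64.01 and 52.9 CPM with Yohio and 68.1 and 51.03 CPM in XY males (log2 fold change -1.35 ± 0.36 SE). BomS1 and BomBc2 were the 2 genes that DESeq2 called lower.

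The 9 Bomanins of the short and tailed kinds were all tested, and all 9 had a log2 fold change below 0, of which BomS4 and BomT3 were above 0 with the trend over exon length removed. Of the 9, 5 were lower at an unadjusted p below 0.05 by edgeR and 0 were called, where 3.25% of all genes were lower at that threshold, 7 had lower groups that did not overlap, against 19.6% of all genes, and the median log2 fold change was -1.35, against 0.03 over all genes. The median lay between -1.78 and -1.41 when 1 library was left out and was -1.19 with the trend over exon length removed. Like the other lists, this one was drawn up with earlier results of these data known. The leading genes BomS1 and BomS3 are among the 5 that were lower at that unadjusted threshold by edgeR. BomS5 had 0.632 and 0.713 CPM with Ycongo, against 3.77 and 5.19 CPM with Yohio, and BomS6 had 2.78 and 0.832 CPM with Ycongo against 8.07 and 7.96 CPM with Yohio. BomT1, a tailed Bomanin, had 5.56 and 2.97 CPM with Ycongo, against 11.3 and 14.4 CPM with Yohio. BomS2 had log2 fold change -1.04 and BomT2 -1.27, each with groups apart. The remaining 2 did not separate the genotypes: BomS4 had log2 fold change -0.18, and BomT3, the most abundant of them, had 68.6 and 708 CPM with Ycongo and 652 and 139 CPM with Yohio, where the replicates of each group differed more than the groups. Of the Bomanins, 8 lie in a cluster on chromosome arm 2R between 18381393 and 18390629 of the BDGP6.54 annotation, and BomT3 lies on 3R. The other Bomanins with paired domains were not on the list, were looked up after the values were seen, and overlapped between groups: BomBc1 had 47.03 and 30.4 CPM with Ycongo and 80.5 and 42.9 CPM with Yohio, and BomBc3 had 8.72 and 24.2 CPM with Ycongo and 29.5 and 20.7 CPM with Yohio.

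Antimicrobial peptides, which the Toll and Imd pathways induce, pointed less clearly in that direction. Of 21 tested, 13 were below 0 and 8 above, with a median of -0.53 (between -0.91 and -0.37 with 1 library left out), 1 lower at an unadjusted p below 0.05 by edgeR (3.25% over all genes), and 7 with lower, separate groups (19.6% over all genes). Metchnikowin (Mtk), an antifungal peptide, had 6.83 and 13.1 CPM with Ycongo, against 57.4 and 25.7 CPM with Yohio and 77.1 and 29.7 CPM in XY males (log2 fold change -2.06 ± 0.60 SE, edgeR adjusted p = 0.693). BaraA1, a Baramicin gene whose exons overlap those of CG30059, had 118 and 162 CPM with Ycongo, against 339.8 and 277 CPM with Yohio. In XY males BaraA1 ranged over both groups, with 379 and 155 CPM. Among 31 genes of immune recognition and signalling, 19 were below 0, the median was -0.30, and 3 were lower at an unadjusted p below 0.05 by edgeR (3.25% over all genes). SPE, the protease that activates the Toll ligand Spätzle, had 44.4 and 37.7 CPM with Ycongo, against 77.02 and 92.4 CPM with Yohio and 70.8 and 69.2 CPM in XY males. The serpin gene nec, an inhibitor upstream of Toll, had 85.6 and 53.97 CPM with Ycongo, against 113 and 151 CPM with Yohio. IM18, listed as an immune-induced gene, had 34.8 and 22.9 CPM with Ycongo, against 97.05 and 60.3 CPM with Yohio. Its counts were identical to those of another gene in every library, and its exons overlap those of CG10332. These reads therefore cannot be assigned to IM18 alone. In testis the order was reversed, with 71.6 and 38.5 CPM with Ycongo against 28.5 and 21.9 CPM with Yohio. PGRP-LF, a peptidoglycan recognition protein that dampens Imd signalling, was high in 1 library, with 13.8 and 155 CPM with Ycongo and 29.8 and 15.3 CPM with Yohio. The same library was also high in the secreted stress protein gene TotA, with 4.80 and 421 CPM with Ycongo and 11.2 and 77.3 CPM with Yohio, and in XY males TotA had 192 and 9.19 CPM.

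The other leading genes lower with Ycongo were not called by either tool. Mcad, a medium-chain acyl-CoA dehydrogenase of fatty acid oxidation, had 27.2 and 27.9 CPM with Ycongo, against 88.1 and 59.6 CPM with Yohio and 74.6 and 49.9 CPM in XY males. Grx5, a glutaredoxin of mitochondrial iron-sulfur cluster assembly, had 2.53 and 1.78 CPM with Ycongo, against 8.07 and 8.80 CPM with Yohio. The selenoprotein gene SelG had 10.2 and 8.68 CPM with Ycongo, against 37.5 and 22.3 CPM with Yohio and 44.3 and 25.9 CPM in XY males. Lnpk, which encodes the endoplasmic reticulum protein Lunapark, had 11.1 and 8.44 CPM with Ycongo, against 30.2 and 21.9 CPM with Yohio. In these 4 genes each XYYcongo library was also below both XY libraries. Ciz1 had a log2 fold change of -1.59 and CG12780 one of -1.46. The noncoding RNAs asRNA:CR45151, asRNA:CR45875 and lncRNA:CR43684 had -1.96, -1.59 and -1.28 on the same scale. By position, 6 of the 12 leading genes lower with Ycongo are on chromosome arm 2R and 4 on 3L, while 5 of the 12 higher ones are on 3R and 3 on 2L, and none of the 24 is on the Y.

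The leading genes were read again in libraries that had no part in choosing them. In testes of the same genotypes Ets96B had 33.6 and 39.9 CPM with Ycongo, against 29.6 and 30.8 CPM with Yohio. In bodies of females, which carry the added Y beside XX, it had 17.9 and 34.3 CPM with Ycongo, against 44.3 and 16.9 CPM with Yohio. The groups did not overlap in testis, where the log2 fold change was 0.28, and overlapped in female body, where it was -0.23. Ude had a log2 fold change of 0.01 in testis and -0.22 in female body. CG32161 was abundant in testis, with 193 and 239 CPM with Ycongo and 242 and 166 CPM with Yohio, and at or below 0.273 CPM in female bodies with an added Y. The difference of the contrast between male body and testis was 2.41 for Ets96B on the log2 scale (edgeR adjusted p = 0.643), and between male and female body it was 2.92 (edgeR adjusted p = 1). Over all genes, 0 of 13831 (0%) were called by edgeR for male body against testis and 1049 (7.58%) had an unadjusted p below 0.05. For male against female body 0 of 13318 (0%) were called and 386 (2.9%) had an unadjusted p below 0.05. An edgeR test of Ycongo against Yohio within testis called 0 of 12743 genes (0%), with 474 at an unadjusted p below 0.05 (3.72%). DESeq2 called 9 in testis, 2 of them higher with Ycongo and 7 lower. Without XYYcongo testis replicate 1, edgeR called 4 genes in testis and 11 for male body against testis. Of the 12 leading genes higher with Ycongo in male body, 9 were tested in testis and 7 of these were above 0, with a median of 0.09, while 10 were tested in female body and 4 of these were above 0. Of the 12 lower ones, 7 of 10 were below 0 in testis, with a median of -0.14, and 10 of 11 in female body, with a median of -0.30. In ovary 4 of the 12 higher genes were tested and all 4 were above 0, with a median of 0.93, and in the central nervous system 3 of 4 were, with a median of 0.17. Of the lower ones 5 of 7 were below 0 in ovary and 4 of 7 in the central nervous system. In ovary Ets96B had 1.06 and 6.13 CPM with Ycongo, against 0.421 and 3.15 CPM with Yohio, which overlapped (log2 fold change 1.00 ± 0.92 SE, edgeR adjusted p = 0.778). Ude, whose exons overlap those of Ets96B, was also among the 4 higher genes tested in ovary, so the 4 are not separate readings. Over all genes tested in male body, 51.1% were above 0 in testis and 51.5% below 0 in female body. In ovary 50.5% were above 0 and 49.5% below, and in the central nervous system 48.3% were above 0 and 51.7% below.

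**Figure D3:**
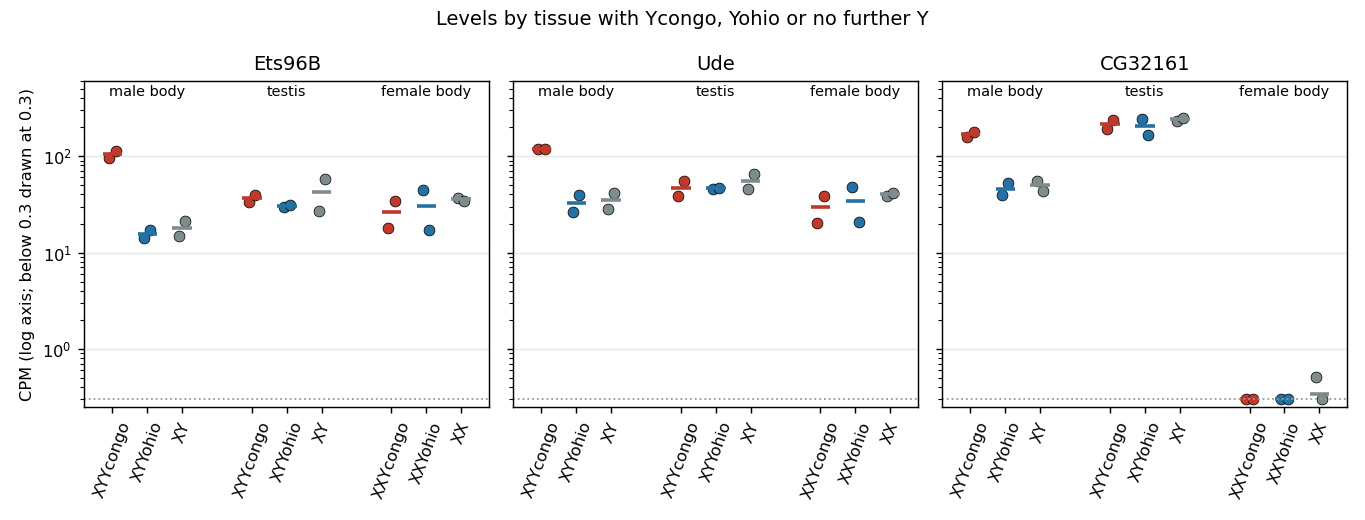
CPM on a log axis of Ets96B, Ude and CG32161 in male body, testis and female body, with 2 libraries per genotype (points) and their mean (bars). The XYYcongo male bodies are above the XYYohio and XY male bodies in each panel, while the genotypes lie close together in testis and overlap in female body.

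Defence peptides were also read in female bodies. BomS1 had 1.53 and 2.86 CPM in XXYcongo females, against 17.5 and 4.70 CPM in XXYohio females and 9.99 and 9.59 CPM in XX females, a log2 fold change of -2.35. Of the 7 Bomanins of the list that were tested in female body, 0 were above 0, with a median of -0.55, and of 17 antimicrobial peptides 0 were above 0, with a median of -2.20, where 48.5% of all genes were above 0. Summed over the 21 antimicrobial peptides tested in male body, the level was 62.7 and 86.1 CPM in XXYcongo females, against 362 and 128 CPM in XXYohio females and 555 and 244 CPM in XX females. The same sum in male bodies was 2078 and 4368 CPM with Ycongo, against 3466 and 2855 CPM with Yohio, so that the groups overlapped there. The 9 Bomanins summed to 62.96 and 330.03 CPM in XXYcongo females, against 438.75 and 21.09 CPM in XXYohio females, and to 149.68 and 826.35 CPM in XYYcongo males, against 927.83 and 406.56 CPM in XYYohio males, and both pairs of groups overlapped. In the Bomanin sums, replicates of a genotype thus differed more than the means of the genotypes did. The antimicrobial peptide sums of both XXYcongo females were below those of both XXYohio females, whose own 2 values also lay far apart. By edgeR 0 of 10459 genes (0%) were called in the female body.

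The protein-coding genes of the Y chromosome gave no called difference between the kinds of added Y. All 12 were tested, 9 were above 0 and 3 below, and the median log2 fold change was 0.84. At an unadjusted p below 0.05 edgeR gave 1 gene higher, Ppr-Y, where 3.39% of all genes were higher. Separate groups were higher in 6 of the 12 and lower in 1, against 17.7% and 19.6% of all genes. Their summed level was 209 and 394 CPM with Ycongo, against 213 and 149 CPM with Yohio and 153 and 179 CPM in XY males. The first XYYcongo library lay within the range of the XYYohio libraries and the second above it. The log2 fold change of the sum was 0.74 ± 0.45 SE (edgeR adjusted p = 0.702), and 0.21 without XYYcongo replicate 2.

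Dynein heavy chains of the sperm tail made up a large part of that sum. The dynein gene kl-5 had 58.5 and 72.03 CPM with Ycongo, against 47.4 and 30.9 CPM with Yohio and 29.5 and 42.97 CPM in XY males (log2 fold change 0.74 ± 0.39 SE, edgeR adjusted p = 0.693). For kl-2 the levels were 28.7 and 58.2 CPM with Ycongo, against 25.9 and 15.9 CPM with Yohio, and for kl-3 they were 38.8 and 43.98 CPM with Ycongo against 37.9 and 20.98 CPM with Yohio. In all 3 the groups did not overlap, with Ycongo higher, as in 17.7% of all genes, although the nearest libraries of kl-3 were close. PRY had 15.8 and 15.8 CPM with Ycongo, against 4.94 and 11.5 CPM with Yohio and 2.55 and 5.72 CPM in XY males. WDY had 10.6 and 17.9 CPM with Ycongo, against 5.33 and 8.80 CPM with Yohio, with XY males at 9.12 and 12.96 CPM, both of them above the XYYohio libraries and 1 within the range of XYYcongo. Ppr-Y had 7.21 and 25.2 CPM with Ycongo, against 6.89 and 3.74 CPM with Yohio (log2 fold change 1.61 ± 0.62 SE, edgeR adjusted p = 0.693), and ARY, an aldehyde reductase gene, had 15.9 and 102 CPM with Ycongo against 26.4 and 16.3 CPM with Yohio. Both were high in XYYcongo replicate 2, and without it ARY had a log2 fold change of -0.42. CCY, ORY, Pp1-Y1 and Pp1-Y2 overlapped between the groups, with log2 fold changes of 0.32, 1.02, -0.01 and -0.36. In testis 2 of the 12 were above 0, with a median of -0.24.

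FDY was the Y gene that ran the other way with separate groups. It is a Y-linked copy of the autosomal gene vig2, with which it may share reads. FDY had 7.46 and 3.57 CPM with Ycongo, against 13.7 and 10.7 CPM with Yohio and 5.77 and 1.94 CPM in XY males. Both XYYohio libraries were the highest, and the XYYcongo libraries lay among those of XY males or just above them. The log2 fold change was -1.15 ± 0.60 SE (edgeR adjusted p = 0.693), and in testis it was 0.11. The 34 Suppressor of Stellate repeats, whose copies are nearly identical and were therefore summed, had 60.1 and 76.1 CPM with Ycongo, against 34.2 and 55.5 CPM with Yohio and 5.36 and 10.1 CPM in XY males. All 4 libraries with an added Y were above both XY libraries, and between the kinds of Y the nearest libraries differed little. The log2 fold change of that sum was 0.60 ± 0.43 SE (edgeR adjusted p = 0.726). The 14 Stellate repeats, their targets on the X, summed to 0.505 and 2.98 CPM with Ycongo and to 2.34 and 1.20 CPM with Yohio, the lowest of them near the limit set by 3 counts.

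**Figure D4:**
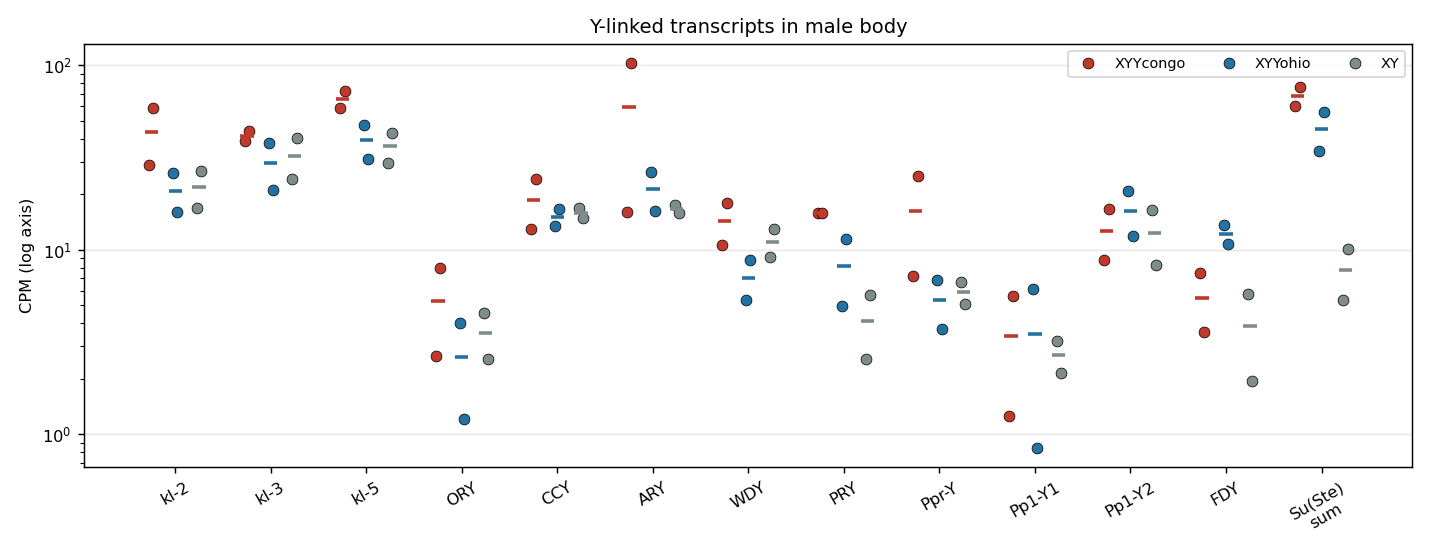
CPM on a log axis of the 12 protein-coding Y genes and of the summed Suppressor of Stellate repeats, Su(Ste), in the 2 male body libraries of each genotype (points) with their mean (bars). FDY is highest in XYYohio, ARY and Ppr-Y are high in 1 XYYcongo library, and Su(Ste) is above XY in all 4 libraries with an added Y.

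Genes in heterochromatic surroundings tended to be higher with Ycongo, by an amount that rested largely on 1 library. Of 91 tested genes of the small chromosome 4, which is packed as heterochromatin along most of its length, 84 were above 0, with a median log2 fold change of 0.60 and 0 called by edgeR. At an unadjusted p below 0.05 edgeR gave 6 higher and 0 lower, where 3.39% of all genes were higher, and 43 had higher, separate groups, where 17.7% of all genes did. Without XYYcongo replicate 2 the median was 0.10 with 59 above 0. In testis it was -0.34, with 8 of 88 above 0, and in female body 0.41, with 77 of 87 above 0. The summed level was 25125 and 32602 CPM with Ycongo, against 18137 and 25308 CPM with Yohio, while the XY libraries, at 13708 and 28106 CPM, spanned most of that range. JYalpha, a subunit of the sodium-potassium pump needed for sperm function, had 109.6 and 219.9 CPM with Ycongo, against 65.4 and 62.8 CPM with Yohio and 61.6 and 107 CPM in XY males. The translation regulator gene 4E-T had 171 and 389 CPM with Ycongo, against 132 and 99.5 CPM with Yohio. Kif3C, a kinesin gene, had 18.5 and 26.7 CPM with Ycongo against 6.63 and 10.97 CPM with Yohio, and CG11155, a glutamate receptor subunit gene, had 108 and 189 CPM with Ycongo against 63.5 and 77.3 CPM with Yohio. In these 4 the higher value with Ycongo was that of replicate 2. Of 24 genes in pericentric heterochromatin, 20 were above 0, with a median of 0.69, which was 0.12 without XYYcongo replicate 2. The pericentric median was -0.20 in testis and 0.49 in female body. Gprk1, a G protein-coupled receptor kinase gene among them, had 36.3 and 124 CPM with Ycongo and 35.1 and 31.7 CPM with Yohio. Heterochromatin protein genes and piRNA pathway genes had medians of -0.13 and 0.05. The piRNA factor gene krimp had 35.6 and 29.5 CPM with Ycongo, against 10.7 and 18.5 CPM with Yohio.

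More genes of the ribosome and of respiration were below 0 than above. Of 85 cytoplasmic ribosomal protein genes, 65 were below 0, with a median log2 fold change of -0.52 and 0 called by edgeR, 16 were lower at an unadjusted p below 0.05, and 43 had lower, separate groups, where 3.25% and 19.6% of all genes did so. The median was between -0.85 and -0.37 with 1 library left out and -0.37 with the length trend removed. RpS13 had 48.9 and 25.4 CPM with Ycongo, against 110.3 and 98.2 CPM with Yohio and 115 and 89.6 CPM in XY males (log2 fold change -1.49 ± 0.42 SE). RpL13A had 85.5 and 64.8 CPM with Ycongo, against 208 and 187 CPM with Yohio. RpL23A had 144 and 97.9 CPM with Ycongo against 253 and 445 CPM with Yohio, and RpL35A 5.31 and 1.07 CPM with Ycongo against 16.7 and 15.2 CPM with Yohio. In these 4 genes both XYYcongo libraries were below both XYYohio libraries. The summed level of the list was 25223 and 15961 CPM with Ycongo and 17650 and 28662 CPM with Yohio, so that the groups overlapped. Of 92 nuclear genes of oxidative phosphorylation, 66 were below 0, with a median of -0.36 and 0 called by edgeR. At an unadjusted p below 0.05 edgeR gave 10 lower, where 3.25% of all genes were lower. Separate groups were lower in 32 of them and higher in 6, against 19.6% and 17.7% of all genes. Their median lay between -0.56 and -0.14 with 1 library left out, and was -0.24 with the length trend removed. They summed to 24364 and 19264 CPM with Ycongo and to 15019 and 26962 CPM with Yohio, so that these sums overlapped too. ND-51, a subunit of complex I, had 86.2 and 42.2 CPM with Ycongo, against 167 and 178 CPM with Yohio. ATPsynF of the ATP synthase had 45.8 and 19.97 CPM with Ycongo against 83.1 and 94.7 CPM with Yohio, and COX5B of cytochrome oxidase 10.1 and 14.03 CPM with Ycongo against 24.8 and 24.5 CPM with Yohio.

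Tissue lists showed how the body as a whole compared. Neuronal genes were above 0 in 16 of 18 cases, with a median of 0.55. That median was 0.32 without XYYcongo replicate 2 and 0.31 with the length trend removed. By edgeR 0 of the 18 were called and 0 were higher at an unadjusted p below 0.05, where 3.39% of all genes were. Separate groups were higher in 11 and lower in 0, against 17.7% and 19.6% of all genes. The synaptic vesicle gene nSyb had 145 and 403 CPM with Ycongo, against 119 and 131 CPM with Yohio, and the calcium sensor gene Syt1 349 and 344 CPM with Ycongo against 181 and 235 CPM with Yohio. Snap25 overlapped between groups, with 49.7 and 275 CPM with Ycongo and 63.6 and 51.3 CPM with Yohio. Of 52 seminal fluid genes, 32 were below 0, with a median of -0.31, which was -0.12 without XYYohio replicate 2 and -0.11 with the length trend removed. Separate groups were lower in 20 of them and higher in 6, against 19.6% and 17.7% of all genes. Their summed level ran the other way, with 20366 and 30119 CPM with Ycongo, against 14251 and 15705 CPM with Yohio and 9579 and 17945 CPM in XY males. The ejaculatory bulb protein gene Ebp, looked up after the values were seen, had 11304 and 17394 CPM with Ycongo, against 5242.5 and 6190.5 CPM with Yohio (edgeR adjusted p = 0.693). Acp33A, an accessory gland product, had 56.6 and 41.6 CPM with Ycongo, against 142 and 97.9 CPM with Yohio, and Sfp26Ad had 29.8 and 19.7 CPM with Ycongo against 80.8 and 43.5 CPM with Yohio. The 40 late spermatogenesis genes had a median of -0.09, which was 0.11 without XYYohio replicate 1, with single genes in both directions. The spermatid transcript c-cup had 291 and 259 CPM with Ycongo, against 68.04 and 123 CPM with Yohio, and wa-cup had 209 and 382 CPM with Ycongo, against 97.4 and 128 CPM with Yohio. Mst84Da, of the sperm tail, had 3.03 and 1.78 CPM with Ycongo, against 11.8 and 6.87 CPM with Yohio, whereas its relative Mst84Db had 497 and 4069.5 CPM with Ycongo against 389 and 406 CPM with Yohio. The 25 muscle genes had a median of 0.09, which was -0.27 without XYYohio replicate 1, -0.12 without XYYcongo replicate 2 and 0.43 without XYYohio replicate 2. Troponin T (up) stood at 86.3 and 113 CPM with Ycongo, against 149.9 and 222 CPM with Yohio, and the troponin C gene TpnC73F at 62.1 and 34.0 CPM with Ycongo against 16.4 and 28.5 CPM with Yohio.

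Fat body, gut and detoxification genes gave mixed values. Among 15 fat body genes 12 were below 0, with a median of -0.32, which was 0.21 without XYYcongo replicate 2. Transferrin (Tsf1), an iron carrier that rises on infection, had 1021 and 947 CPM with Ycongo, against 2830.1 and 1982 CPM with Yohio and 2013 and 1598 CPM in XY males. The lipid droplet protein gene Lsd-1 had 40.2 and 37.6 CPM with Ycongo, against 88.3 and 62.6 CPM with Yohio, and the insulin-like peptide gene Ilp6 had 51.2 and 42.3 CPM with Ycongo against 24.5 and 23.3 CPM with Yohio. Of 48 digestive enzyme genes 32 were below 0, with a median of -0.28, which was 0.24 without XYYcongo replicate 2. The protease gene Jon74E had 34.8 and 12.01 CPM with Ycongo, against 103 and 44.5 CPM with Yohio, and the lysozyme gene LysE, one of several near-identical copies that may share reads, had 43.4 and 26.9 CPM with Ycongo against 14.6 and 10.7 CPM with Yohio. Of 29 UDP-glycosyltransferases, which attach sugars to toxins, 21 were above 0 and 5 were higher at an unadjusted p below 0.05 by edgeR (3.39% over all genes), with a median of 0.18. Ugt50B3 had 607 and 540.0 CPM with Ycongo, against 209.8 and 297 CPM with Yohio, and Ugt36F1 had 18.2 and 14.7 CPM with Ycongo against 5.20 and 6.75 CPM with Yohio. The 78 cytochrome P450 genes had a median of 0.09, which was -0.04 without XYYcongo replicate 1, with Cyp12a5 at 278 and 138 CPM with Ycongo, against 81.7 and 99.9 CPM with Yohio, and Cyp6a8 at 18.3 and 66.9 CPM with Ycongo against 16.9 and 13.5 CPM with Yohio.

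Chaperones, which fold other proteins, were more often below 0 than above. Of 28 heat shock genes 20 were below 0, with a median of -0.23, which was -0.11 without XYYohio replicate 2. Lower, separate groups were found in 11 of the 28, where 19.6% of all genes had them. By edgeR 0 were called and 1 was lower at an unadjusted p below 0.05, where 3.25% of all genes were. The constitutive chaperone gene Hsc70-4 had 997 and 529.8 CPM with Ycongo, against 1935 and 1458 CPM with Yohio, and the small heat shock gene Hsp23 7.08 and 8.20 CPM with Ycongo against 18.7 and 24.4 CPM with Yohio. Of 10 clock genes tested, 7 were above 0 and 3 below. Transcripts of per and Clk, which peak at opposite times of day, had values in opposite directions. The clock gene per had 6.57 and 6.78 CPM with Ycongo, against 18.6 and 12.3 CPM with Yohio and 19.2 and 11.1 CPM in XY males, while its activator gene Clk had 123 and 165 CPM with Ycongo, against 61.01 and 89.97 CPM with Yohio and 50.8 and 83.6 CPM in XY males. Within XYYohio and within XY, per was also lower and Clk higher in replicate 2 than in replicate 1. Within XYYcongo Clk was higher in replicate 2 as well, while per was nearly the same in both replicates. Both genes had edgeR adjusted p = 0.693. The hour at which the flies were collected is not given in the sources used here, and whether it bears on these values was not tested. The lists of photoreceptor, glial, clock, dosage compensation, glutathione transferase, cell cycle and antiviral genes had medians between 0.08 and 0.27. Those of hemocyte, feeding, cuticle, female germline and spermatocyte regulator genes lay between -0.48 and -0.21, and the chemosensory list lay at 0.01. With 1 library left out the median turned sign in 9 of these 13 lists, with values such as -0.47 for antiviral genes without XYYcongo replicate 2, -0.26 for dosage compensation without XYYcongo replicate 1, 0.19 for cuticle genes without XYYohio replicate 2 and 0.06 for spermatocyte regulators without XYYcongo replicate 2. Those of photoreceptor, hemocyte, feeding and female germline genes kept their sign. The 4 Turandot genes tested had a median of 1.94, which was -2.997 without XYYcongo replicate 2, and the 29 mitochondrially encoded genes one of 1.25, which was -2.48 without that library. Of the replication-dependent histones 2 were tested, with a median of -2.06.

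**Figure D5:**
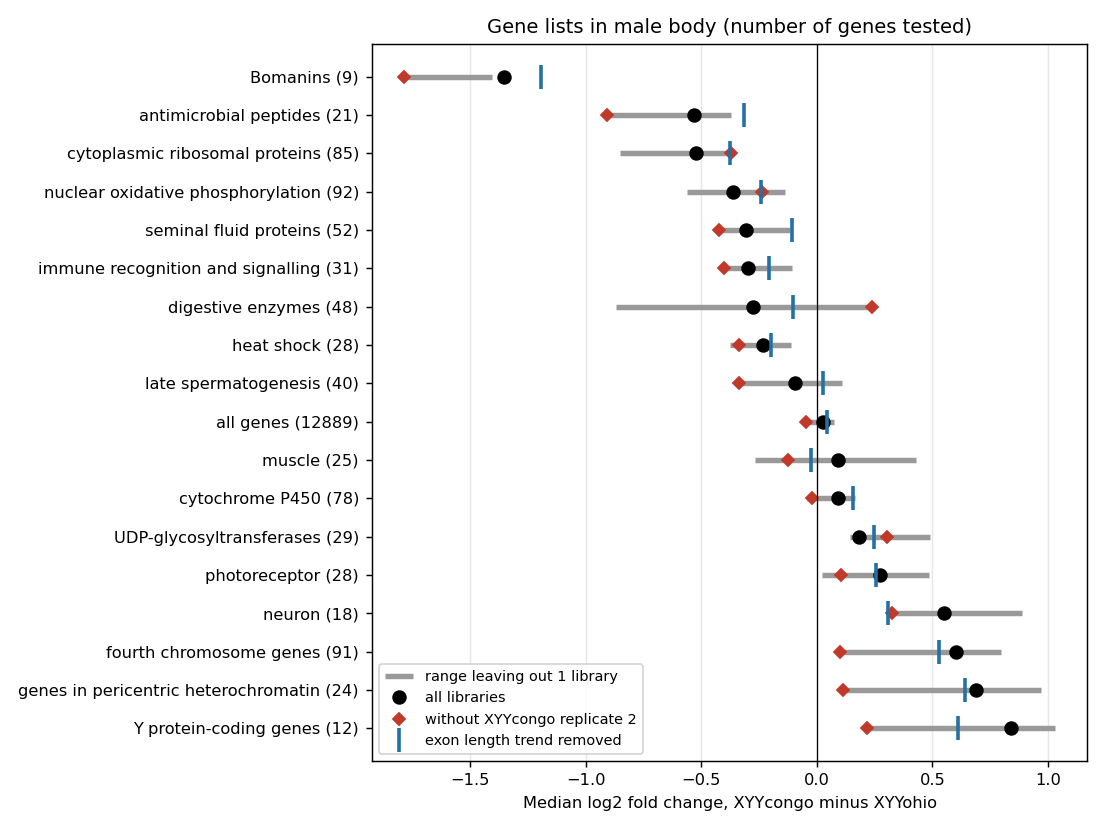
Median log2 fold change of XYYcongo minus XYYohio in male body for 17 gene lists and all genes, with the number of genes tested in brackets. Black points are the medians with all libraries, grey bars the range when 1 library was left out, red diamonds the medians without XYYcongo replicate 2 and blue ticks those with the exon length trend removed; with all libraries the Bomanin median is the lowest of the 17 plotted, and those of chromosome 4, pericentric and Y genes are nearer to 0 without XYYcongo replicate 2.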

How the data were processed

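Poly(A) RNA of 30 libraries was sequenced from both ends, per the labels' protocols. The submitters' processing notes name SAMtools, Bowtie2, Trim Galore, R 3.2.3 and DESeq2 1.8.1. For counting tool, genome build and strandedness, nothing was given in the sources used here. The deposited files hold raw read counts for 16868 genes, without normalization by the authors, and 15 deposited tables of comparisons were not used.

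Counts of 6 male body libraries were fitted with edgeR 4.0.16 (R 4.3.3): filterByExpr with a minimum count of 10, TMM, quasi-likelihood tests, 3 residual degrees of freedom, Benjamini-Hochberg adjustment, threshold 0.05. Testis was fitted likewise, and differences between tissues on 12 libraries. Sums over near-identical copies were fitted as 1 row. DESeq2 1.42.0 and the settings in the closing section were alternatives. The code was tested on simulated data. Symbols and positions came from Ensembl BDGP6.54, release 115. Reads of 221 genes in 106 sets with identical counts cannot be assigned.

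Named were the 12 leading genes per direction all protein-coding Y genes and up to 4 members per list with the smallest p, apart from those said to be chosen later. Members and 37 lists were chosen with earlier results of these data known.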

Additional observations from a re-analysis of the deposited data

How the results depend on the processing

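For XYYcongo against XYYohio in male body, edgeR called 0 genes with RLE scaling, without the filter on low counts, on the 4 libraries alone, with 12 or all 30 libraries, without mitochondrial genes and with the exon length trend removed, an alternative chosen after seeing the data. DESeq2 called 16 in male body and 9 in testis, where edgeR called 0. Leaving out 1 library gave 0 to 1 calls in male body, the 1 without XYYcongo replicate 1. It gave 0 to 4 in testis and 0 to 11 for male body against testis, the 4 and the 11 without XYYcongo testis replicate 1, and 0 for male against female body. Replicate numbers paired the XYYohio libraries with the XY libraries, but not those of XYYcongo with either. Same-numbered deviations correlated at -0.379 (XYYcongo with XYYohio), -0.292 (XYYcongo with XY) and 0.602 (XYYohio with XY). With the replicate block edgeR called 0 genes, with 894 at an unadjusted p below 0.05, and with the XYYcongo numbers crossed, also chosen after seeing the data, 0 and 1576. The block called 0 in testis and 0 for both differences. Of 97 named genes, 9 reversed in some setting. The 24 leading genes were chosen with groups that did not overlap, so their sign says nothing of stability; their edgeR adjusted p lay between 0.0957 and 0.998.

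With 1 library left out, log2 fold changes ranged from 0.29 to 0.99 for the sum of Suppressor of Stellate repeats, from 0.21 to 1.13 for the sum of Y protein-coding genes, from -1.77 to 0.75 for the sum of Stellate repeats, which was 0.00063 with RLE, and from -0.11 to 2.43 for the sum of mitochondrially encoded genes. Over the same settings the values ranged from -0.42 (without XYYcongo replicate 2) to 2.27 for ARY, from -0.19 (without XYYcongo replicate 2) to 0.70 for CCY, from -1.44 to 2.01 for Pp1-Y1, from -0.87 to 0.10 for Pp1-Y2, from -1.11 to 0.39 for BomS4, from -2.52 to 1.48 for BomT3, from -0.70 to 2.78 for PGRP-LF, from -0.20 to 2.27 for Snap25 and from -3.19 to 4.25 for TotA. Pp1-Y1 was 0.0028 with RLE, 0.23 with the replicate block, 0.085 with crossed numbers and 0.13 with the length trend removed. BomT3 was 0.11 with the block and 0.12 with the length trend removed, BomS4 was 0.074 with the length trend removed, and TotA was -0.87 with crossed numbers. The cause of these shifts was not tested. With 2 libraries per genotype and a biological coefficient of variation of 0.374, spread limits these values, and low levels such as the Stellate sum, at 0.505 CPM in XYYcongo replicate 1, are limited by counting as well.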
